A study of Mus musculus with 10 samples.

Results

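Small nucleolar RNAs (snoRNAs) are short non-coding RNAs of the nucleolus that guide chemical modification and cleavage of ribosomal RNA. Members of the box C/D class (genes named Snord) pair with rRNA and direct 2′-O-methylation by fibrillarin, and members of the box H/ACA class (genes named Snora) direct pseudouridylation by dyskerin. Most mammalian snoRNAs are cut out of introns of host genes, many of which encode ribosomal proteins or factors of ribosome production, or are non-coding genes of the Snhg type known chiefly as sources of snoRNAs. The ribosomes of muscle fibres are built with the same guides as those of other cells.

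The genes described here are the 73 snoRNA genes, 47 of box C/D and 26 of box H/ACA, that could be read from the probe sets of a muscle array holding 22180 genes. A gene was taken when the platform annotation gave a probe set exactly 1 gene symbol and that symbol began with Snord or Snora, and the probe set of highest mean stood for the gene. These conditions held for 75 probe sets, and 43 further probe sets that name a snoRNA along with other genes were not used. The gene class was chosen by its measured log2 levels, which had been seen to set 1 control array apart, so the position of that array is given as a description without a test.

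The RNA came from the gastrocnemius, a calf muscle, of 10 male mice of the outbred NMRI stock, 1 array per mouse. The basal diet of the 5 control mice held under 5 mg of carnitine per kg, and the 5 carnitine mice ate it with 1000 mg per kg of L-carnitine, the carrier of long-chain fatty acids across the inner mitochondrial membrane. The arrays sample a feeding study of 60 animals (30 on each diet, caged by 5, on diet from 3 weeks of age) in which groups of 10 on each diet were taken at 9, 15 or 18 months. The labels give neither the age nor the cage of the mice on the arrays, so both may differ between them. All 14 genes of a muscle fibre list were bright, from 9.87 for Myh7 to 13.82 for Acta1 in mean log2 level.

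Control replicate 5 stood apart from the other 9 arrays. Its log2 values were compressed, with an interquartile range of 2.2 over all probe sets against 2.39 to 2.59 on the others. Its mean level over the 73 snoRNA genes was 6.76, below the 7.33 to 7.94 of the other arrays. The 6 endothelial genes of a marker list averaged 7.83 there against 8.16 to 8.62 elsewhere, the 10 leukocyte genes averaged 5.8 against 5.38 to 5.72, and the 14 muscle fibre genes averaged 12.86, within the 12.55 to 12.98 of the other arrays. The endothelial defining genes Cdh5 and Pecam1 were well above the array's median level of 5.8, with means of 9.85 and 8.4, and most of the leukocyte list was below it, with Ms4a1 at 4.34 and Cd3e at 5.22. The part of these cell types in the snoRNA levels was not tested, and in whole muscle fewer cells of a type and less RNA per cell cannot be told apart. Where leaving this array out moved a difference between the diets by over 1.5 times, the value without it is given as well.

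The levels of the snoRNA genes spanned most of the array's range. Mean log2 values over the 10 arrays ran from 3.44 for Snord90 to 12.3 for Snora33, with a median of 7.41, and 58 of the 73 genes lay above the median level of all probe sets. The brightest were Snora33 (12.3), Snord82 (11.51), Snord87 (11.02), Snord47 (10.46), Snord55 (10.33) and Snord110 (9.98). Snora33 and Snord110 lie within the genes of the ribosomal protein Rps12 and of the snoRNP protein Nop56, Snord82 within that of nucleolin (Ncl), and Snord47 and Snord87 within the spans of the non-coding genes Gas5 and Snhg6. The dimmest were Snord90 (3.44), Snord91a (3.67), Snord92 (4.01), Snord85 (4.17), Snord37 (4.58) and Snord19 (4.74), where values lie near the array's floor. A level on such an array depends on the probes as well as on the RNA, so this order is of signals and not of RNA amounts. Snora33 shows how far that goes: its second probe set had a mean of only 6.46. Snora19 also had 2 probe sets, and they held the same values on every array.

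The RNAs differ in length by class. In the RefSeq models the 47 box C/D genes were 48 to 221 bases long with a median of 68, and the 26 box H/ACA genes 56 to 205 with a median of 118.5. The median level of the classes was close, 7.49 for box C/D and 7.37 for box H/ACA. The signals ran from 3.44 to 11.51 for box C/D and from 5.04 to 12.3 for box H/ACA.

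From mouse to mouse the snoRNA genes had a larger median SD than all genes, and most varied more among control than among carnitine mice. Leaving out control replicate 5, the median SD over 9 arrays was 0.29 on the log2 scale (range 0.09 to 0.81) for the snoRNA genes and 0.15 for all genes. The median was 0.27 for box C/D and 0.33 for box H/ACA. The control SD was larger than the carnitine SD in 66 of the 73 (90.4%, against 75% of all genes), and without control replicate 5 in 61 (83.6% against 60.9%). The median control SD was 0.51 with that array and 0.36 without it, and the median carnitine SD was 0.22. Snord99 varied most over the 9 arrays, and Snora33, Snord8, Snora35, Snord52, Snord23 and Snord35a were among the steadiest genes. For Snora33 this holds for its brightest probe set, which ran from 12.11 to 12.62. Its second probe set ran from 6.22 to 7.13 over the same 9 arrays.

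Snord99, which guides methylation of 28S rRNA, showed its spread as a pair of high mice. Its log2 level was 9.11, 8.62, 8.53, 10.52 and 7.67 in control mice 1 to 5 and 9.32, 8.72, 8.86, 10.73 and 9.06 in carnitine mice 1 to 5. Control replicate 4 and carnitine replicate 4 were thus at least 1 unit above every other array of their group, and control replicate 5 was lowest. Carnitine minus control was 0.45 ± 0.45 (SE) and 0.14 ± 0.428 (SE) without control replicate 5, and the groups overlapped.

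On control replicate 5 most, but not all, snoRNA genes were low. Against the median of the other 9 arrays, the median deviation was -0.76 on the log2 scale for the 73 genes, -0.78 for box C/D and -0.67 for box H/ACA. The deviation was negative in 62 of the 73 genes, and below -1 in 25 (34.2%), against 0.523% of all genes and 0.6% of genes whose level lies within the quartiles of the snoRNA levels. Control replicate 5 was the lowest of the 10 arrays for 51 of them (69.9%), against 22.5% of all genes and 40.5% of the genes of like level. The deviations ran from -3.11 for Snord58b, through -2.52 for Snord70, -2.27 for Snord72, -2.22 for Snora15, -2.15 for Snord1b and -2 for Snord82, to 0.59 for Snord23.

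**Figure D1:**
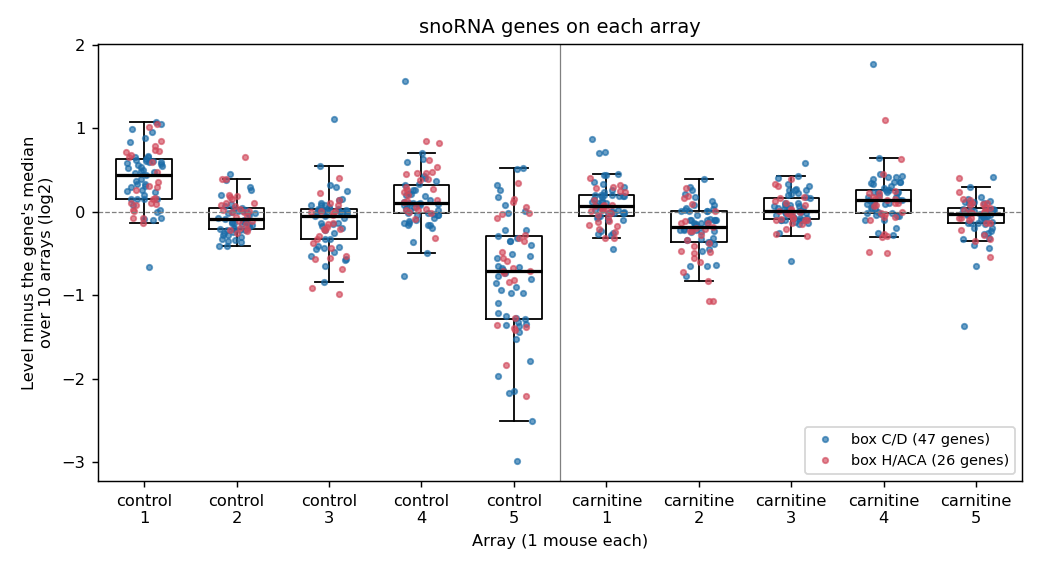
Each point is 1 snoRNA gene on 1 array, plotted as its log2 level minus that gene's median over the 10 arrays; boxes give the median and quartiles over the 73 genes, and colours the box C/D (47) and box H/ACA (26) genes. The median lies at -0.7 on control replicate 5 and at 0.44 on control replicate 1, and between -0.18 and 0.14 on the other 8 arrays.

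Snord58b shows the largest gap. It was at 8.69, 7.62, 6.9, 7.38 and 4.75 in control mice 1 to 5 and at 8.18, 7.1, 8.05, 8.38 and 7.86 in the carnitine mice. The fifth control mouse lay far below all the others, and the first control mouse was the highest. Snora15, a box H/ACA gene, was at 8.33, 7.99, 7.2, 8.2 and 5.97 in the control mice and at 8.17, 7.11, 8.19, 8.32 and 8.42 in the carnitine mice, with the same mouse lowest and the second carnitine mouse next. Against these stood 11 genes that were not below the other arrays, among them Snord23 (0.59), Snord91a (0.52), Snora68 (0.34), Snord8 (0.32), Snord92 (0.26) and Snord83b (0.2). Snord8 was at 9.14, 9.1, 9.11, 9.34 and 9.43 in the control mice and from 9.03 to 9.21 in the carnitine mice, so that control replicate 5 was the highest of all.

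By length, the medians of these deviations had no order, while the share of genes below -1 was highest among the shortest (13 of 29) and lowest among the longest (1 of 7), with 5 of 18 and 6 of 19 between them. The median was -0.87 for the 29 genes under 70 bases, -0.63 for the 18 from 70 bases to under 100, -0.76 for the 19 from 100 to under 140 and -0.69 for the 7 longer ones. By level, the 10 box C/D genes below 5.8 had a median of -0.31 and the other level ranges of box C/D genes medians from -0.94 to -0.83. For box H/ACA genes the medians of the 4 level ranges lay between -0.81 and -0.29 with no order.

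Control replicate 1 stood on the other side. It was the highest array for 40 of the 73 genes (54.8%), 30 of 47 box C/D and 10 of 26 box H/ACA genes, against 8.12% of all genes. Snord13 (1.18 above the median of the other 9), Snora73a (1.1) and Snord58b (1.07) were among the furthest above. Control mice 1 and 5 were therefore at opposite ends, and the mean over the 73 genes was 7.94, 7.49, 7.4, 7.7 and 6.76 in control mice 1 to 5 and 7.62, 7.33, 7.57, 7.69 and 7.47 in carnitine mice 1 to 5. The carnitine values all lay inside the control range, and without control replicate 5 that of carnitine replicate 2 (7.33) lay below it.

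Other small RNAs that are not snoRNA genes by name moved partly in the same way on these arrays. Of 13 measured genes of a list of such RNAs, 9 were lowest on control replicate 5 and 7 were highest on control replicate 1. Scarna2, Scarna6, Scarna10 and Scarna17 (Cajal body guide RNAs), Rnu12 (minor spliceosome), Rpph1 (RNase P) and the Y RNAs Rny1 and Rny3 were lowest on control replicate 5, with deviations from -0.45 for Scarna2 to -1.46 for Rny3. Terc, the RNA of telomerase, was 0.19 above the other arrays on control replicate 5.

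The host genes were set beside their snoRNAs. In RefSeq, 70 of the 73 snoRNA genes lay within the span of another gene, 19 within ribosomal protein genes and 20 within long non-coding genes, and 3 (Snord13, Snord89 and Snord118) lay within none. The table used gives no strand, so a span on the opposite strand is not told apart from a host. For 59 snoRNA genes exactly 1 such gene was measured, 45 different hosts in all. On control replicate 5 the 45 hosts deviated by a median of -0.24 (-0.86 to 0.53) and none was below -1. The median was -0.76 for the 59 snoRNA genes. The snoRNA was further below than its host in 46 of the 59. On control replicate 1 the 45 hosts deviated by a median of -0.04 and the 59 snoRNA genes by 0.42. The snoRNA was further above in 53 of the 59.

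**Figure D2:**
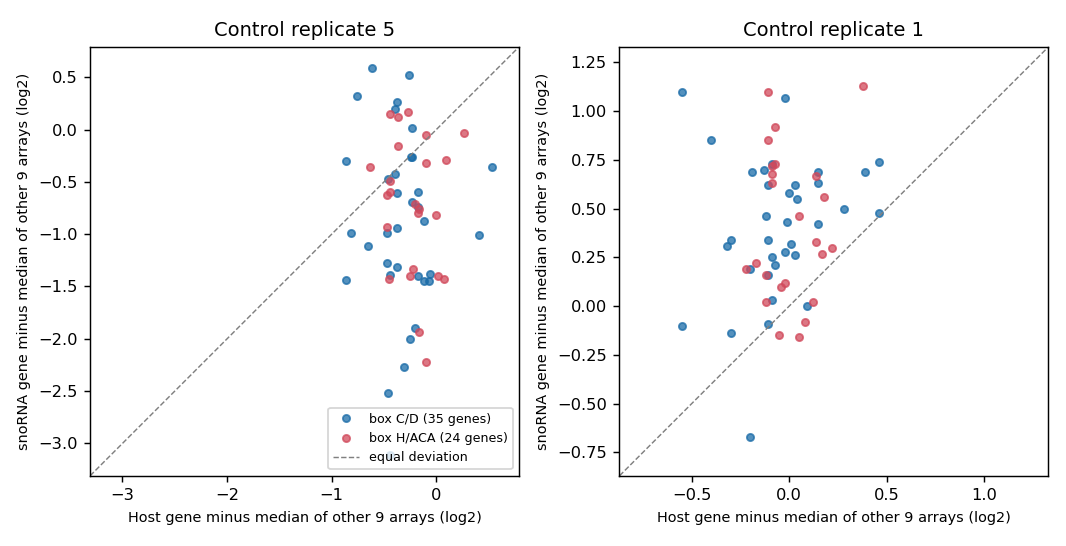
Each point is 1 of the 59 snoRNA genes with a single measured host, with the host's deviation on the x axis and the snoRNA's on the y axis, both as log2 level minus the median of the other 9 arrays, for control replicate 5 (left) and control replicate 1 (right); the dashed line marks equal deviation. On control replicate 5, 46 points lie below the line, and on control replicate 1, 53 lie above it.

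Some pairs show how far the readings parted. Snord58b deviated by -3.11 and its host Rpl17, a ribosomal protein gene that read dim here (mean 4.07), by -0.44. Snord70 deviated by -2.52 and its host Nop58, a core protein of box C/D particles, by -0.46. Snora15 deviated by -2.22 and its host Cct6a, a chaperonin subunit, by -0.1. Snord23 went the other way, at 0.59 above the other arrays while its host Nop53 was 0.62 below them.

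The dietary comparison asked whether added carnitine changed these genes. No snoRNA gene passed an adjusted p of 0.05 in limma's moderated test with Benjamini-Hochberg adjustment over all 22180 genes (smallest adjusted p = 0.712), and the background was 0% as well, with 0 of 22180 genes called. At an unadjusted p under 0.05 by the same limma fit, 1 snoRNA gene was higher (1.37%, background 3.14%) and 4 were lower (5.48%, background 3.83%). The higher one was Snord70 and the lower ones were Snora73a, Snora61, Snora73b and Snord85. The direction was split, with 38 positive and 35 negative differences, and the median difference was 0.03 against -0.01 over all genes. The mean over the 73 genes was 7.46 ± 0.44 (SD, n = 5) in control and 7.53 ± 0.14 (SD, n = 5) in carnitine mice, a difference of 0.08.

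The sign of that mean turned with control replicate 5. Without it the control mean was 7.63 ± 0.24 (SD, n = 4) and carnitine minus control was -0.1, with 23 positive and 50 negative differences (31.5% positive, against 51.1% of all genes). Then 2 genes were higher at an unadjusted p under 0.05 (2.74%, background 2.56%), Snord70 and Snord91a. Lower were 8 (11%, background 2.99%), the same 4 together with Snora47, Snora74a, Snord13 and Snord37, and no adjusted p passed in limma (smallest 0.847, background 0%). Leaving out control replicate 1 moved the genes the other way. The mean difference was then 0.2, with 55 positive and 18 negative differences, and 13 genes were higher (17.8%, against 3.43% of all genes) and 3 lower (4.11% against 4.72%) at an unadjusted p under 0.05. The number of higher genes was 4 without control replicate 2 (5.48% against 5.77%), 5 without control replicate 4 (6.85% against 2.25%), and 2 without each of carnitine replicates 2, 4 and 5 (2.74% against 2.01%, 3% and 2.9%). Leaving out control replicate 4 gave a mean difference of 0.14, and leaving out carnitine replicate 2 or 4 gave 0.13 or 0.04. Without control replicate 2, 1 of all genes passed the adjusted threshold, and it was no snoRNA gene.

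By class, the difference of the means was 0.13 for box C/D (control 7.42 ± 0.46, carnitine 7.54 ± 0.14, SD, n = 5 each) and -0.01 for box H/ACA (control 7.53 ± 0.42, carnitine 7.52 ± 0.16, SD, n = 5 each). Without control replicate 5 it was -0.06 and -0.17. Of the 26 box H/ACA genes, 15 differences were negative with all arrays and 22 without that array, and of the 47 box C/D genes 20 and 28. Each of these differences of means was smaller than the SD of the control mice, and the difference between the classes was not tested. At an unadjusted p under 0.05 in limma, 1 of 14 muscle fibre marker genes was lower in carnitine mice (background 3.83%). It was Myh7, the slow fibre myosin, by -1.64 (unadjusted p = 0.0277 in limma). Its carnitine values ran from 6.36 to 10.94 and overlapped the control values of 10.2 to 11.29. Also lower were 2 of 10 leukocyte genes (Cd163 and Cd79a) and 1 of 6 adipocyte genes (Retn). Cd163, Cd79a and Retn were each highest on control replicate 5. Of 8 fibroblast and tendon genes 1 was higher (background 3.14%). The part of these markers in the snoRNA values was not tested.

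Among the genes with lower values in carnitine mice were the U17 RNAs Snora73a and Snora73b, box H/ACA members that act in cleavage of the 18S rRNA precursor rather than as common modification guides. Snora73a was at 8.31, 7.37, 7.69, 7.76 and 7.21 in the control mice and at 6.97, 7.06, 7.14, 7.51 and 7.01 in the carnitine mice. The difference was -0.53 ± 0.17 (SE), unadjusted p = 0.00882 and adjusted p = 0.712 in limma, and the groups overlapped through the fourth carnitine mouse. Snora73b was at 7.95, 7.1, 7.27, 7.7 and 7.22 against 6.99, 6.93, 6.95, 7.31 and 7.03, a difference of -0.41 ± 0.15 (SE, unadjusted p = 0.0166 in limma), again with the first control mouse highest and an overlap through the fourth carnitine mouse. The U17 copies resemble each other in sequence and lie in 1 host gene, so their probe sets are not independent readings.

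Snora61 and Snord85 were the only members whose 5 carnitine values all lay below the 5 control values (2.74%, background 0.609%), and this held without control replicate 5 (background 0.879%). For 0 members did all carnitine values lie above the control values (background 0.505%), also without control replicate 5 (background 0.784%). Snora61, a box H/ACA guide, was at 8.63, 8.06, 8.25, 8.06 and 8.15 in the control mice and at 7.97, 7.89, 7.93, 8 and 7.68 in the carnitine mice, a difference of -0.34 ± 0.11 (SE, unadjusted p = 0.0104 and adjusted p = 0.712 in limma). The highest carnitine value (8) was just under the lowest control value (8.06). Snord85, a box C/D gene, was dim, at 4.61, 4.31, 4.19, 4.15 and 4.2 against 4.05, 4.01, 4.08, 4.01 and 4.07, a difference of -0.25 ± 0.1 (SE, unadjusted p = 0.0219 in limma), which no longer passed without control replicate 1 (-0.17). All its values lay below the median probe set level, where differences on this array are compressed. With median centring neither Snora61 (unadjusted p = 0.0509 in limma) nor Snord85 passed.

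**Figure D3:**
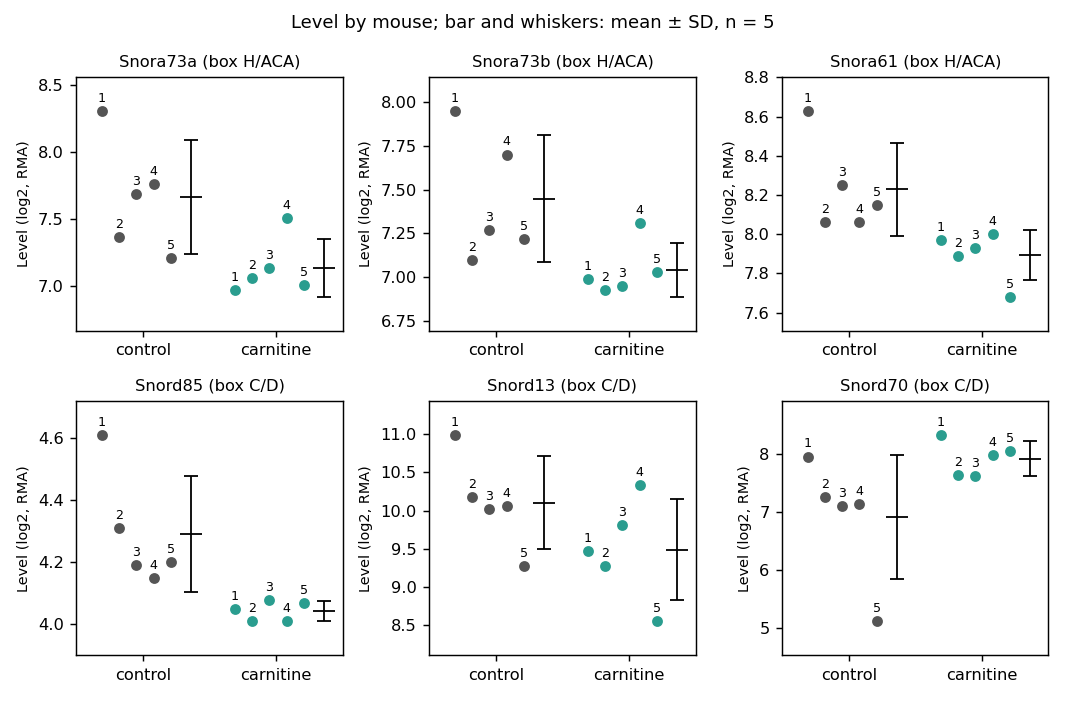
Log2 level of 6 snoRNA genes in each mouse, numbered by replicate, for control (grey) and carnitine (green); the bar and whiskers beside each group are the mean and SD of 5 mice, and each panel has its own y axis. The groups are apart for Snora61 and Snord85 and overlap for the other 4, and control mouse 5 is far below the rest for Snord70.

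Snord13, the U13 RNA that assists acetylation of 18S rRNA, had the largest negative difference. It was at 10.99, 10.18, 10.02, 10.06 and 9.27 in the control mice and at 9.47, 9.27, 9.81, 10.34 and 8.55 in the carnitine mice. The first control mouse was highest, the fifth carnitine mouse lowest, and the groups overlapped. The difference was -0.62 ± 0.31 (SE, unadjusted p = 0.0658 in limma) and -0.82 without control replicate 5 (unadjusted p = 0.0151). It was -0.39 without control replicate 1 and -0.38 without carnitine replicate 5 (unadjusted p = 0.194 in limma). Snord118, the U8 RNA required for 5.8S and 28S rRNA maturation, was at 5.73 ± 0.33 in control and 5.47 ± 0.27 in carnitine mice (SD, n = 5 each), and its difference of -0.25 was -0.11 without control replicate 4 and -0.17 without carnitine replicate 2. Snora47 differed by -0.22, or -0.14 without control replicate 4, and Snora41 by -0.23, or -0.15 without carnitine replicate 2.

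Snord70 had the largest positive difference. It was at 7.95, 7.26, 7.09, 7.13 and 5.11 in the control mice and at 8.32, 7.63, 7.61, 7.97 and 8.04 in the carnitine mice, so 4 control mice were below all carnitine mice and the first control mouse was within their range. The difference was 1.01 ± 0.38 (SE), 2.01-fold, unadjusted p = 0.0181 and adjusted p = 0.712 in limma. Without control replicate 5 it was 0.56 (unadjusted p = 0.00944), so the size rested on that array by more than 1.5 times while the sign did not. Its neighbour in the Nop58 gene, Snord11, had a difference of 0.25 (unadjusted p = 0.0545), and Nop58 itself 0.16, or 0.08 without control replicate 5.

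Snord82, a box C/D guide in the nucleolin gene, was at 11.96, 11.31, 11.3, 11.68 and 9.75 in the control mice against 11.9, 11.75, 11.68, 11.94 and 11.84 in the carnitine mice. Only control mouse 5 was far from the others, and the difference was 0.62 with it (unadjusted p = 0.0535) and 0.26 without it (unadjusted p = 0.0633 in limma). Snord1b behaved alike, with 0.72 with that array and 0.3 without it. Snord110 and Snord19 went from 0.41 to 0.14 and 0.15, and Snora2b from 0.32 to 0.21. Of the 8 positive differences with the smallest p, 6 shrank by more than 1.5 times without control replicate 5, all but Snord11 and Snora78.

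**Figure D4:**
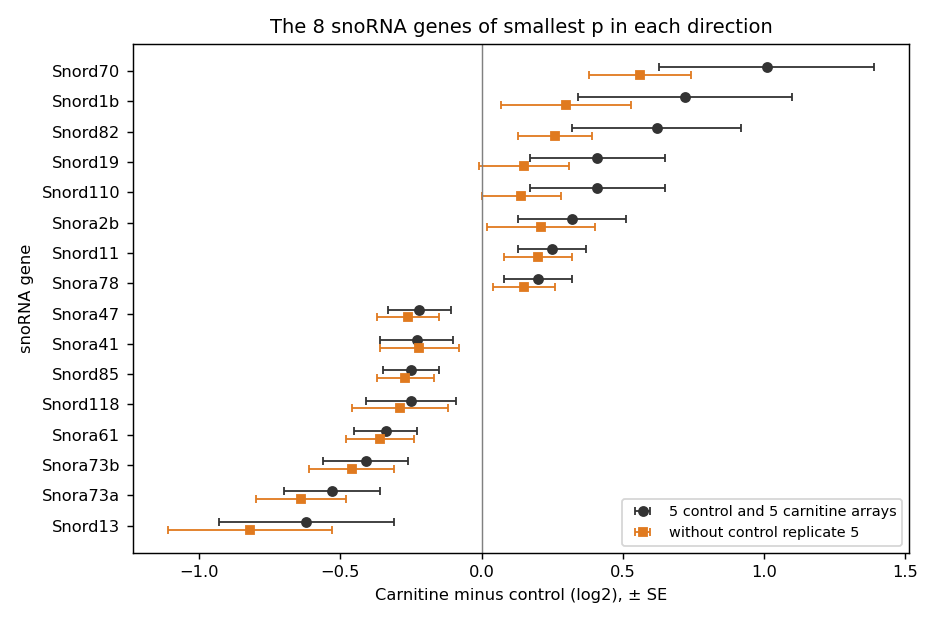
Carnitine minus control on the log2 scale, with its SE, for the 8 snoRNA genes of smallest p in each direction, from all 10 arrays (circles) and without control replicate 5 (squares). The positive differences move towards 0 without that array, from 1.01 to 0.56 for Snord70, and 7 of the 8 negative ones move away from 0, from -0.62 to -0.82 for Snord13.

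Snhg12, a non-coding gene, holds 4 of the snoRNA genes, Snora16a, Snora44, Snora61 and Snord99. Their differences were -0.06, -0.07, -0.34 and 0.45, and without control replicate 5 they were -0.23, -0.23, -0.36 and 0.14. Whether the 4 differ from each other was not tested. The host's own was 0.34 ± 0.12 (SE, unadjusted p = 0.0122 and adjusted p = 0.712 in limma), and 0.3 without control replicate 5. The host read 6.15, 6.24, 6.06, 5.58 and 5.8 in the control mice and 6.26, 6.33, 6.4, 6.22 and 6.33 in the carnitine mice, apart but for the second control mouse. It was lowest in control replicate 4, where Snord99 (10.52) and Snora16a (8.99) were highest among the control mice. In carnitine replicate 4, where Snord99 (10.73) and Snora16a (9.26) were again highest, the host was at 6.22. That was its lowest carnitine value, close to the next (6.26).

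**Figure D5:**
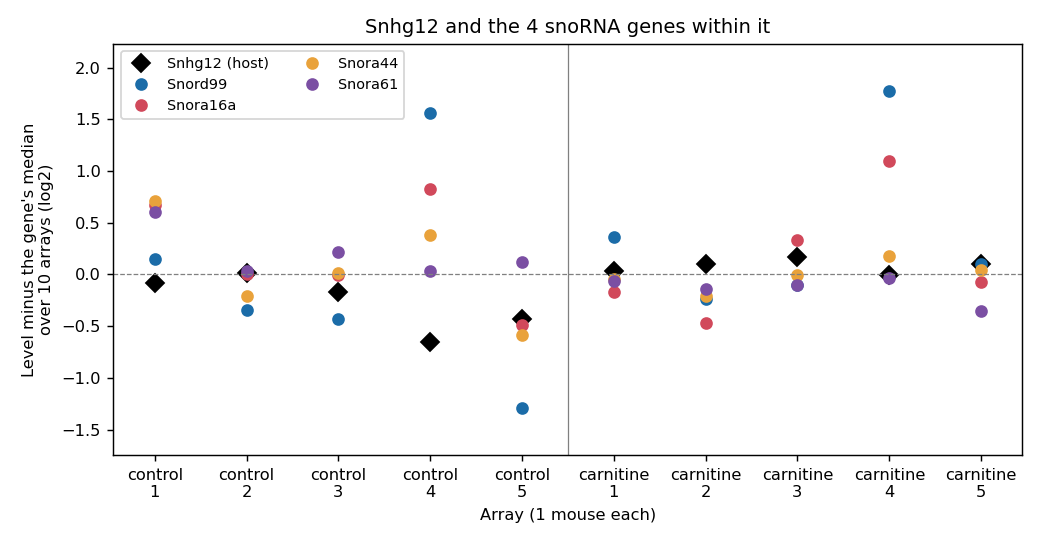
Log2 level minus each gene's median over the 10 arrays, for the host Snhg12 (diamonds) and the 4 snoRNA genes within it (circles), by array. Snord99 and Snora16a are high in control 4 and carnitine 4, the host is lowest in control 4, and Snora61 lies lower in the carnitine mice.

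Snhg3, the host of Snora73a and Snora73b, had a difference of 0.19 (unadjusted p = 0.107), opposite in sign to both, and of 0.12 without control replicate 5. Over the 59 snoRNA genes with 1 measured host, the sign of the difference was that of the host in 34. The host differences ran from -0.11 to 0.34 with a median of 0.1, none passed an adjusted p of 0.05 in limma, and 3 of the 45 were higher at an unadjusted p under 0.05 (Snhg12, Snx5 and Tcp1; 6.67%, background 3.14%). Without control replicate 5 only Snhg12 was (2.22%, background 2.56%), and the median was 0.05. A probe set of the host reads its exons, and one of the snoRNA may read the mature RNA, the intron or both. The share of each was not tested.

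The start sites of Snhg3 and Snhg12 are shown because 3 of the 4 lower genes lie within them. Genes of ribosomal proteins and many snoRNA hosts are known for transcripts that begin with C and a run of pyrimidines, the terminal oligopyrimidine tract. Windows run 5′ to 3′ on the gene's strand, 50 bases before the RefSeq start and 50 from it (GRCm38.p6), with capitals for the first run of at least 6 C or T that begins with C within 20 bases of the start.
Snhg3, chr4:132353637-132353736 (-): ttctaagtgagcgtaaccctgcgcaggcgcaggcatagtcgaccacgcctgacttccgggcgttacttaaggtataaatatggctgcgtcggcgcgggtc
Snhg12, chr4:132308628-132308727 (+): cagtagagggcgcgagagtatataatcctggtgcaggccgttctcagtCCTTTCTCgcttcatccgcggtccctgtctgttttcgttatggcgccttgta
Snhg12 has such a run of 8 bases and Snhg3 none in its window. Of 48 host genes with a window, 23 had one (47.9%), against 35.4% of 27025 genes, searched on the gene's strand alone. Starts other than the RefSeq one were not searched, so a run at another start of Snhg3 would not be seen.

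The proteins that build, process and use snoRNAs were read from lists, and in limma the adjusted p was above 0.05 for each of their genes. Of 7 core proteins of snoRNA particles (among them Nop56, Nop58, Snu13, Dkc1 and Gar1), 0 passed an unadjusted p of 0.05, and the median difference was 0.13 (0.08 without control replicate 5). Dkc1, the pseudouridine synthase dyskerin, differed by 0.17 ± 0.128 (SE), by 0.08 without control replicate 5 and by 0.28 without control replicate 2, and Snu13, which binds the box C/D motif, by 0.13 ± 0.078 (SE). Of 16 assembly factors, also 0 passed it, with a median of 0.09 (0.04 without that array). Of 21 genes of precursor trimming and decay, 2 were higher at that level, Rbm7 (0.25) and Exosc9 (0.22), and 0 lower (9.52% and 0%, background 3.14% and 3.83%), with a median of 0.1. Without control replicate 5 only Rbm7 was (4.76%, background 2.56%), with a median of 0.02. Of 29 genes of rRNA synthesis and processing, 4 were higher, Mphosph10 (0.27), Ftsj3 (0.24), Rrn3 (0.23) and Nop2 (0.2), and 0 lower (13.8% and 0%), with a median of 0.13. Without control replicate 5 only Ftsj3 (0.23) and Rrn3 (0.2) were (6.9%), the median was 0.08, and Mphosph10 and Nop2 were at 0.21 and 0.13. Rrn3 is the initiation factor of RNA polymerase I, and Nop2 methylates 28S rRNA.

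Control replicate 5 was also low for most of these genes. It was the lowest array for 21 of the 29 rRNA genes, 15 of the 21 decay genes, 9 of the 16 assembly factors and 4 of the 7 core proteins, with median deviations of -0.34, -0.34, -0.25 and -0.15. Genes within the snoRNA level quartiles had a median of -0.17 there and 40.5% were lowest on it, so the core proteins were near that background. Among 19 non-coding host genes, 1 was higher (Snhg12) and 1 lower (Snhg11, -0.34 ± 0.0965 SE, unadjusted p = 0.00329 in limma). Each was 5.26% of the list, against a background of 3.14% higher and 3.83% lower. Their median difference was 0, and 6 of the 19 were lowest on control replicate 5. Of the 13 other small RNA genes, 1 was lower, Rnu11 of the minor spliceosome (-0.35, unadjusted p = 0.00466 in limma). It was 7.69% of that list (background 3.83%), whose median of 0.07 was -0.04 without control replicate 5.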

How the data were processed

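Total RNA from 30 mg of frozen gastrocnemius of individual mice (RNeasy Mini columns, which keep short RNAs incompletely; mean A260/A280 of 1.87 ± 0.02 in each group, per the labels) was read on Affymetrix Mouse Gene 2.0 ST arrays. The deposited values are log2 levels of 34390 probe sets made by the authors with RMA in Affymetrix Expression Console, per the submitters' processing notes, whose versions the sources used here do not give. RMA brings the probe values of the arrays to a shared distribution, which hides differences in total RNA between mice, and levels near the floor are compressed. The probe set values formed from them still differed in spread, with interquartile ranges from 2.2 to 2.59.

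Of the probe sets, 23521 have 1 gene symbol in the platform annotation, 1814 have several and 9055 are not listed; the brightest per gene was kept (22180 genes). Carnitine was compared with control in limma 3.58.1 (R 4.3.3, lmFit and eBayes with an intensity trend), two-sided, adjusted by Benjamini-Hochberg over all genes; with 5 mice a group their number limits the precision. The fit was tested on simulated data. Hosts were taken as RefSeq genes (GRCm38.p6) that span a snoRNA gene, with no strand in that table, although hosts on the same strand had been planned. The members, marker and pathway lists and tests were chosen with earlier results of these data known. Genes were named by rule (the 8 smallest p in each direction, the 6 brightest and dimmest, the steadiest and most variable, the 6 lowest and highest on control replicate 5, their hosts, and list genes); other genes named were chosen after their values were seen. Deviations are from the median of the other 9 arrays. Alternatives were other scalings, filters, probe set rules and models and leaving out each array. Sequences of the snoRNA genes were not used here, and some host genes are not reported here.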

Additional observations from a re-analysis of the deposited data

Results flagged for a closer look

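Among 82 groups of 5 mice examined (the means and 38 snoRNA genes named by rule), 4 held a mouse whose distance to the nearest of the others exceeded Dixon's 95% critical value of 0.71 of the group's range. Chance flags about 1 group in 20, and many of these genes were named for their place on control replicate 5 or their spread, so the number of flags is not read further. Of the 4 flags, 0 fell on control replicate 5, which the rule compares with the other control mice only. The box H/ACA mean of carnitine replicate 2 was 7.25 against 7.54 to 7.65 in the others. Snora15 in the same mouse was 7.11 against 8.17 to 8.42. Snord11 in carnitine replicate 5 was 5.99 against 6.33 to 6.43, and Snora73b in carnitine replicate 4 was 7.31 against 6.93 to 7.03.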

How the results depend on the processing

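No snoRNA gene and no gene of the pathway lists passed an adjusted p of 0.05 in limma under any of the 19 alternatives or at an adjusted p under 0.10; at an unadjusted p under 0.05, 5 snoRNA genes passed. Of all genes 0 passed, but 1 without control replicate 2. At an unadjusted p under 0.05 the number of higher snoRNA genes (1) was 2 with median centring, with cyclic loess and with quantile normalization (2.74%, against 4%, 2.85% and 2.72% of all genes), and 1 to 13 with 1 array left out; the number of lower ones (4) was 2 with median centring (2.74% against 2.4%) and 3 to 8 with 1 array left out. At an unadjusted p under 0.01 these were 0 and 1. Over all genes, 696 higher became 107 and 850 lower became 184 at that level; lower ones were 533 with median centring and 246 with the filter on dim genes, and leaving out 1 array gave 445 to 1280 higher and 648 to 1280 lower. Same-numbered mice were not treated as pairs, since the correlations of their deviations (0.236, 0.0123, -0.132, 0.23 and 0.105) were not all above 0.1 and the labels name no shared source; control mice 1 and 4 correlated best with their own number and the other 3 did not. With the replicate block, 5 snoRNA genes were higher (6.85% against 3.85% of all genes) and 7 lower (9.59% against 4.28%). Of 43 named genes, most of them chosen for a small p, 2 turned sign, in 3 pairs of gene and left-out array. Members with differences near 0 turned as well. Over all 73, 38 differences were positive with all arrays, 23 without control replicate 5 and 55 without control replicate 1. Snord37 ranged from -0.58 to 0.04 and Snora74a from -0.47 to 0.08. With array weights 26 differences were positive and 47 negative, with a median of -0.09. The snoRNA mean differences moved by less than the spread between mice under the scaling, filter, probe set and left-out array alternatives. The others were not run on them. For all 73 genes that spread (SD within groups, 0.33) includes control replicate 5 and is larger than the difference of 0.08. A turned sign, as in the -0.1 without control replicate 5, therefore also counts as a smaller move. The cause of these shifts was not tested.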

Other observations

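With all arrays, 4 snoRNA genes were lower in carnitine mice at an unadjusted p under 0.05. All 4 lie on chromosome 4 in RefSeq (GRCm38.p6), which holds 8 of the 73. This was noticed after the values were seen, and no test was made. Snora61 (Snhg12) and Snora73a and Snora73b (Snhg3) are neighbours, with 2 genes between their hosts. Over chromosome 4 as a whole, 3.83% of 1279 measured genes were lower. Rnu11, which lies on the same chromosome, was at 9.3, 9.09, 9, 9.3 and 8.86 in the control mice and at 9, 8.67, 8.76, 8.68 and 8.69 in the carnitine mice, with the first carnitine mouse in the control range. The other 4 snoRNA genes of the chromosome, Snord55, Snora16a, Snora44 and Snord99, had differences of -0.03, -0.06, -0.07 and 0.45. Leaving out control replicate 5 gave -0.19, -0.23, -0.23 and 0.14. Without control replicate 5, 8 snoRNA genes were lower at an unadjusted p under 0.05 in limma. Of these, Snora47, Snora74a, Snord13 and Snord37 do not lie on chromosome 4. NMRI mice are outbred, and the genotypes of the array mice were not analysed here.

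RefSeq snoRNAs with other names, which the rule does not take, lay on both sides on control replicate 5. AF357425, AF357426, DQ267101 and DQ267102 deviated by 0, -0.03, 0.35 and 0.39 from the median of the other 9 arrays, and Gm12238 and AF357399 by -0.96 and -1.04. Rnu3a, the U3 RNA of 18S rRNA processing, had the widest range of the other small RNAs measured, from 3.96 in carnitine replicate 2 to 6.74 in control replicate 1.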
